A study of Rattus norvegicus with 48 samples.

Results

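The miR-143/145 cluster was examined here in the livers of rats given thioacetamide (TAA), a hepatotoxicant that liver cells convert into reactive products. The cluster gives 4 mature miRNAs, taken by their names in the count table: rno-miR-143-3p, rno-miR-143-5p, rno-miR-145-5p and rno-miR-145-3p, out of 664 mature miRNAs with a read in at least 1 library. Both hairpins come from a shared primary transcript, and each is cut into a 5p and a 3p arm. The cluster is best known from smooth muscle, where it helps to keep cells in their contractile state and acts on regulators of the cell phenotype such as Klf4 and Klf5. In liver it is generally linked to the muscle layer of vessels, stellate cells and fibroblasts, whereas hepatocytes are rich in miR-122. Liver miRNA-seq is a bulk measurement, so fewer cells of a type and less RNA per cell cannot be told apart, and the counts do not show which cells a read came from.

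The animals were male Sprague-Dawley rats in 3 treated groups and 1 control group, each examined after 3, 7, 14 or 28 days of daily dosing (written 3-d to 28-d). A TAA dose was 4.5 mg/kg in the low dose group, 15 mg/kg in the middle dose group and 45 mg/kg in the high dose group, while controls had 0 mg/kg. The age of the rats is not given in the sources used here. Each of the 16 groups had 3 rats and each rat gave 1 library, so the 48 libraries are separate animals. The controls of each time point were given vehicle over the same number of days, and the 3 doses of a time point share the same 3 controls.

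The mature sequences are shown because the 4 members did not move together and each carries a seed of its own. Capitals mark the seed, bases 2 to 8 from the 5′ end, which pairs with target mRNAs.
rno-miR-143-3p: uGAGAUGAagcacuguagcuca
rno-miR-143-5p: gGUGCAGUgcugcaucucugg
rno-miR-145-5p: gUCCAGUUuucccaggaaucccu
rno-miR-145-3p: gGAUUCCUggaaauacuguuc
The sequences are from RefSeq (GRCr8), where all 4 names were found. The 4 seeds differ from each other, and 0 other rat mature miRNAs in the RefSeq table of 693 names carry any of them. The mature forms are between 21 and 23 bases long.

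The hairpins show how each pair of arms leaves the same precursor. Capitals mark the mature 5p arm and then the mature 3p arm.
Mir143: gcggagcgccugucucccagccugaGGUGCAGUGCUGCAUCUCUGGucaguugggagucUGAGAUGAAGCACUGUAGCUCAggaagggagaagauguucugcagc
Mir145: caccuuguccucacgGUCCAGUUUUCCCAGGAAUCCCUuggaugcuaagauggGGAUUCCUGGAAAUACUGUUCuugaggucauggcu
In GRCr8 both lie on the minus strand, Mir143 (105 bases) at chr18:57371349-57371453 and Mir145 (88 bases) at chr18:57369983-57370070, with 1278 bases between them. They are the only 2 annotated miRNA hairpins within 10000 bases on either side, and both lie inside Carmn, a lncRNA gene known from smooth muscle and heart.

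All 4 members were among the 301 miRNAs that passed the filter, 5 RPM (mature counts scaled to a common library total) in at least 3 libraries. Library totals were 293331 counts in control 3-d replicate 1 and 4829217 to 14906217 in the other 47. In that shallow library the members had 6558, 8, 191 and 24 counts (miR-143-3p, miR-143-5p, miR-145-5p and miR-145-3p), with 95% Poisson intervals of 3.45 to 15.8 for miR-143-5p and 15.4 to 35.7 for miR-145-3p, which cover counting error only. With 3 counts as the floor of detection, this amounted to 10.2 RPM there and to 0.201 to 0.621 RPM elsewhere. This library correlated with the others of its group at r = 0.887 and 0.894, against 0.991 between those 2. High dose 3-d replicate 24, high dose 7-d replicate 26 and low dose 28-d replicate 29 were also set apart from their groups (r = 0.977 to 0.982). The other 2 libraries of those groups had r = 0.9905, 0.9845 and 0.9925 with each other. The range of r alone does not separate these 3 from middle dose 3-d replicates 10 and 12, which were not set apart. Those had r = 0.976 with each other and 0.984 with the remaining library of their group. Leaving them out together with the 4 libraries set apart was not tested. The library labelled high dose 3-d replicate 24 was most like the 14-d controls (mean r = 0.993, against 0.980 with its own group), and the library labelled high dose 7-d replicate 26 was most like the middle dose at 28-d (0.991 against 0.980). Of the libraries labelled low dose 28-d, replicate 29 was most like the low dose at 14-d (0.992 against 0.978), while replicates 28 and 30 were most like the middle dose at 7-d (0.990) and at 14-d (0.993). Being most like another group was not particular to these libraries. It also held for all libraries of high dose 14-d and of middle dose 3-d. High dose 7-d replicate 27 was most like the low dose at 14-d (0.991 against 0.981). Whether labels were exchanged was not tested, and directions at high dose 3-d, high dose 7-d and low dose 28-d rest on them. Replicate numbers are the running numbers of the labels.

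The level of miR-143-3p was far above that of the other members. It took 2.21% to 4.87% of the counts of a library (median 4.10%), and its median rank was 7 among all mature miRNAs. miR-145-3p had a median of 304 RPM, miR-145-5p of 252 RPM and miR-143-5p, the strand of miR-143 that is mostly discarded, of 21.5 RPM. These are shares of reads, and no correction for length was made. How reads of different miRNAs or arms relate to numbers of molecules was not measured. Later levels are upper quartile normalized RPM, except those written as RPM alone, which are scaled by the library total only.

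The order of the 16 group means differed between members. The highest group mean of miR-143-3p was 52018 ± 4035 (SD, n = 3) at low dose 14-d and the lowest 31059 ± 1970 at middle dose 14-d, a ratio of 1.67. miR-143-5p was highest where miR-143-3p was lowest, with 27.2 ± 2.86 at middle dose 14-d, and lowest at high dose 3-d with 14.5 ± 4.12, a ratio of 1.88. miR-145-5p went from 532 ± 347 at middle dose 3-d to 146 ± 27.1 at low dose 7-d, a ratio of 3.65. Without replicate 10 the mean at middle dose 3-d was 337, and the highest group mean was then that of the 3-d controls, 398 ± 135. miR-145-3p went from 476 ± 104 in the 28-d controls to 181 ± 16.1 at low dose 7-d, a ratio of 2.63. For every member the libraries of neighbouring groups in this order overlapped, in 15 of 15 pairs, so only groups farther apart in the order can be separated by their spread.

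**Figure D1:**
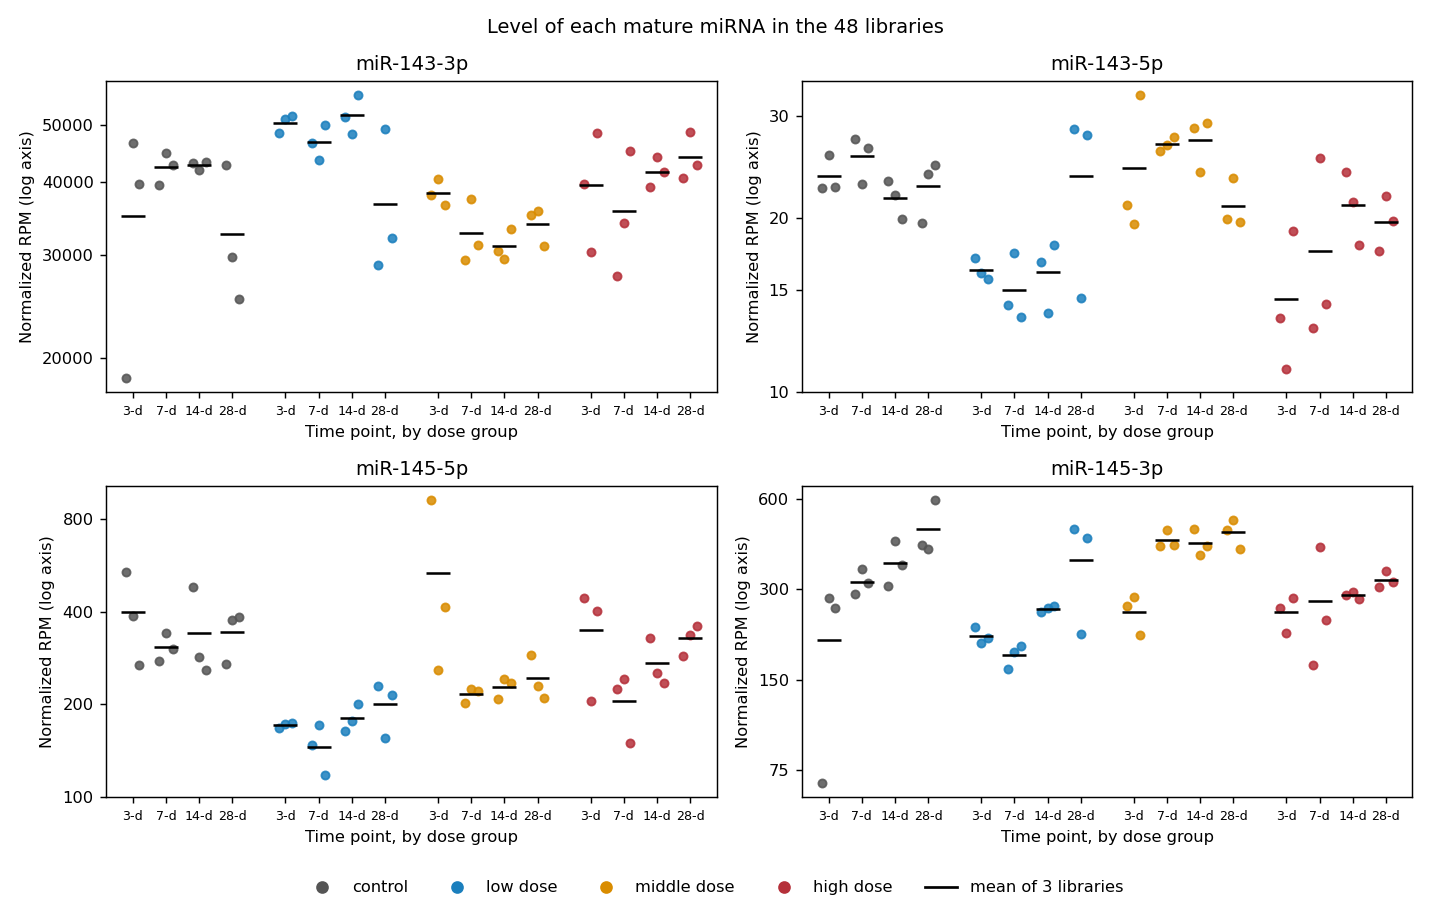
Upper quartile normalized RPM (log axis) of the 4 mature miRNAs in each library, by dose group and time point; points are libraries and bars the mean of 3. The low dose libraries of miR-145-5p lie between 118 and 230, all below the lowest control at 259, and those of miR-143-3p reach the highest values, up to 56209.

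miR-145-5p, the arm of miR-145 with the best known targets, was lower at low dose than in the controls at all 4 time points. At 3-d the low dose libraries had 168, 172 and 174 normalized RPM and the controls 538, 387 and 269. At 7-d the values were 148, 172 and 118 against 276, 341 and 302. The low dose libraries were close to each other at both times, while the 3-d controls spread widely, and the groups did not overlap.

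At 14-d the low dose libraries had 164, 177 and 200 normalized RPM of miR-145-5p and the controls 482, 284 and 259. At 28-d the values were 230, 156 and 214 against 271, 377 and 385. Again no low dose library reached its controls, although at 28-d the nearest pair, 230 and 271, came close. Taken over all 4 time points, the 12 low dose libraries had 118 to 230 normalized RPM (median 172) and the 12 controls 259 to 538 (median 321). The 2 sets of 12 did not overlap, which held for 1.33% of the 301 miRNAs tested, and for 1 of the 4 members.

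The fold changes of miR-145-5p at low dose followed from these values. A differentially expressed miRNA (DEM) had an unadjusted p below 0.05 and a fold change above 1.5 in the quasi-likelihood F-test of edgeR. By this rule miR-145-5p was a lower DEM at low dose in 4 of 4 time points, where 16.6% (3-d), 28.9% (7-d), 32.6% (14-d) and 12.3% (28-d) of all tested miRNAs were DEMs. The log2 fold change was -1.21 ± 0.32 (SE) at 3-d, with a Benjamini-Hochberg adjusted p of 0.219 in edgeR. It was -1.07 ± 0.15 at 7-d (adjusted p = 0.000889 in edgeR) and -0.92 ± 0.23 at 14-d (adjusted p = 0.00835 in edgeR). At 28-d it was -0.78 ± 0.25 (adjusted p = 0.249 in edgeR). Only the 7-d and 14-d values thus passed the adjustment over all miRNAs, which 42.5% and 40.2% of those tested did, and the 3-d value did so as well without control 3-d replicate 1 (-0.94, adjusted p = 0.0133 in edgeR). The 3-d value also passed in the Wald test of DESeq2 (-1.58), with all 12 controls pooled (-1.02) and in the fit of all 48 libraries (-1.20). It did not under TMM, DESeq2 size factors, library size alone, no filter, 5 RPM in every library or the exact test. By the unadjusted rule each of the 4 time points remained a lower DEM whichever library was left out. This also held under every other setting except library size alone at 28-d, where the log2 fold change was -0.56. The 14-d value rested most on control replicate 13, at 482, and was -0.59 without it.

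Fold changes here are relative to upper quartile scaling. Under it the median log2 fold change of all tested miRNAs was between -0.06 and 0.28 in the 12 conditions, with 0.16 and 0.11 at low dose 3-d and 14-d, 0.21 at middle dose 3-d, and 0.28 and 0.14 at high dose 3-d and 7-d. With TMM factors the medians were between -0.06 and 0.07. A decrease of a member was therefore larger, and an increase smaller, against the other miRNAs of those 5 conditions than the fold change itself.

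At middle dose, miR-145-5p had no DEM call in 4 conditions, where 2.99%, 15.9%, 17.3% and 32.9% of miRNAs were DEMs from 3-d to 28-d. At 3-d the libraries had 923, 260 and 414 normalized RPM, which span the controls on both sides, and replicate 10, at 923, was the highest of all 48. At 7-d the values were 202, 225 and 222, all below the controls (log2 fold change -0.50 ± 0.10, adjusted p = 0.00779 in edgeR, against 27.6% of miRNAs that passed at this dose and time). The change was under the 1.5-fold limit at 7-d and no other time point passed the adjustment in the main edgeR test. The 7-d value did not pass it with all 12 controls pooled (-0.68) or in the fit of all 48 libraries. At 14-d the values were 208, 242 and 235, with a log2 fold change of -0.58 ± 0.22 (adjusted p = 0.0831 in edgeR), a fold of 1.496 that was a DEM in 6 of 10 other settings but was -0.25 without control 14-d replicate 13. At 28-d they were 290, 230 and 210, and 290 lay within the control range (log2 fold change -0.50 ± 0.20, adjusted p = 0.0756 in edgeR). The 28-d value passed the adjustment under TMM (-0.57), in the Wald test of DESeq2 (-0.55) and with no filter (-0.66), where it was also a DEM. The 14-d value passed with no filter (-0.59) and in the Wald test (-0.62).

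At high dose, miR-145-5p was likewise a DEM in 0 of 4 conditions, against 11.3%, 21.3%, 9.3% and 15.3% of miRNAs from 3-d to 28-d. The 7-d libraries had 225, 241 and 150 normalized RPM and did not overlap the controls (log2 fold change -0.58 ± 0.22, adjusted p = 0.13 in edgeR), again close to the limit and a DEM in 6 of 10 other settings. Without replicate 26 the 7-d value was -0.71. At 28-d, with 288, 337 and 360, they lay within the control range (-0.07 ± 0.18). Over the 12 conditions the log2 fold change of miR-145-5p was below 0 in 11, under each scaling tried, and in 10 with all 12 controls pooled. The exception was the middle dose at 3-d, 0.42 ± 0.55, which was -0.24 without replicate 10.

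**Figure D2:**
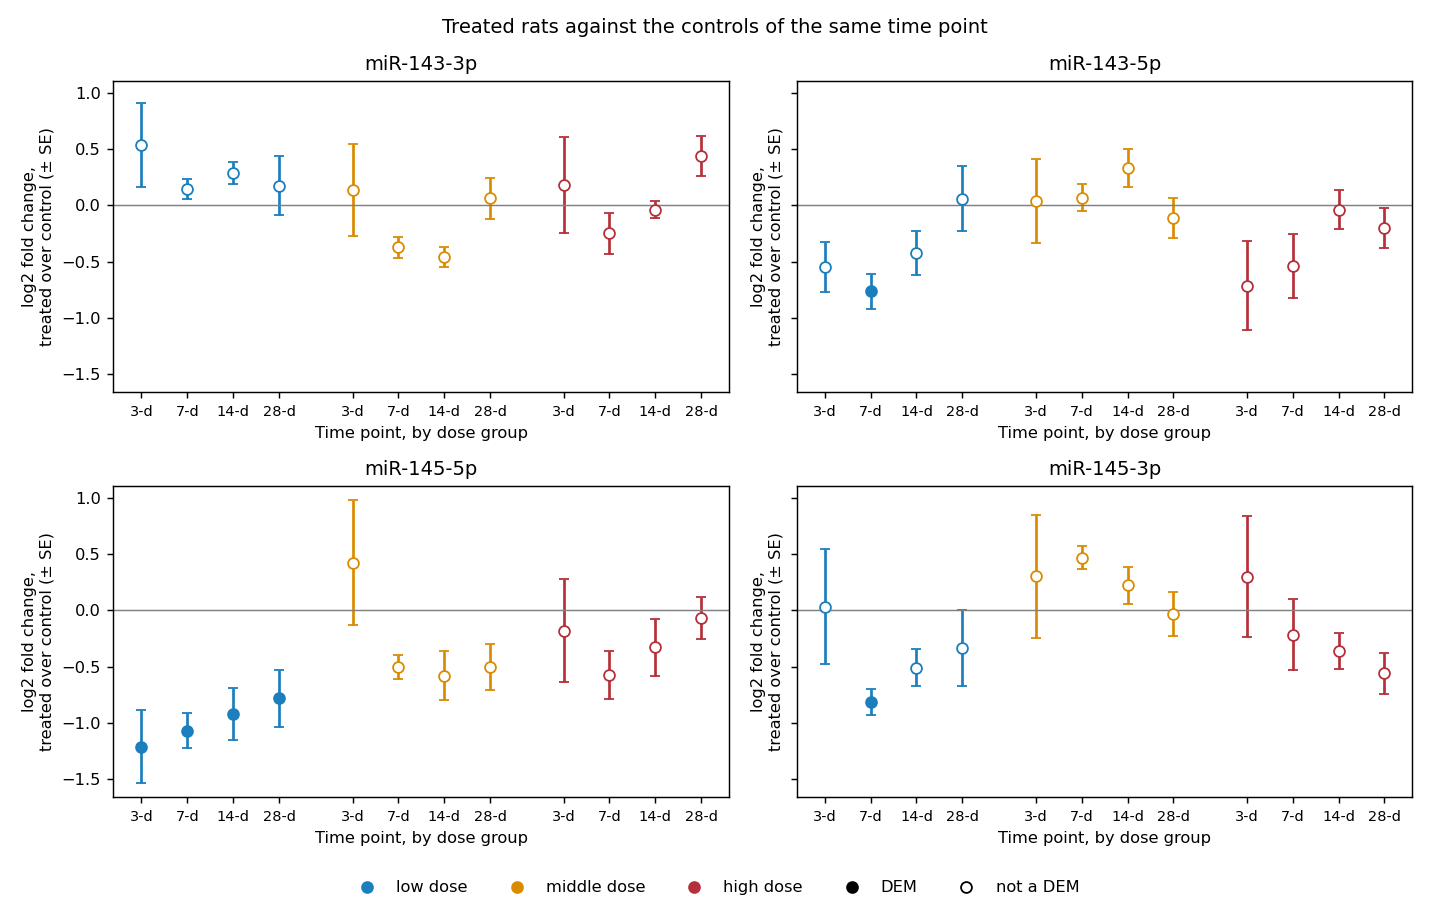
log2 fold change of each member (± SE of the edgeR fit) in the 12 conditions, each against the 3 controls of its time point; filled points are DEMs. The 4 filled points of miR-145-5p are the low dose conditions, from -1.21 at 3-d to -0.78 at 28-d, and miR-143-3p has none.

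miR-145-3p, the opposite arm of the same hairpin, followed miR-145-5p at low dose 7-d and not at middle dose. At low dose 7-d its libraries had 163, 186 and 194 normalized RPM against 290, 350 and 315 in the controls. It was a lower DEM there (log2 fold change -0.82 ± 0.12, adjusted p = 0.000855 in edgeR), its only DEM call in 12 conditions. At low dose 14-d the values were 252, 260.5 and 263 against 307, 436 and 361 in the controls. The groups were separate (-0.51 ± 0.17, adjusted p = 0.0293 in edgeR) but the change stayed under 1.5-fold, while 6 of 10 other settings made it a DEM. It did not pass the adjustment in 2 of 10 other settings, or when any 1 of 5 of the 6 libraries was left out, with -0.37 without control 14-d replicate 14.

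At middle dose 7-d the libraries of miR-145-3p had 420, 475 and 423 normalized RPM, all above the same controls. The log2 fold change was 0.46 ± 0.10 (adjusted p = 0.0105 in edgeR), while that of miR-145-5p in the same rats was -0.50, so the arms of a shared hairpin moved in opposite directions, each short of the 1.5-fold limit. For both arms the adjusted p was above 0.05 in edgeR with all 12 controls pooled and in the fit of all 48 libraries. At high dose 28-d the values were 306, 345 and 316 against 423, 409 and 596, with a log2 fold change of -0.56 ± 0.18 (adjusted p = 0.0921 in edgeR). This value was a DEM in 4 of 10 other settings, but it was -0.37 without control 28-d replicate 18 and -0.086 with all 12 controls pooled. Two-sided exact comparisons of 3 rats with 3 cannot give a p below 0.1, so none was made.

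miR-143-3p, which acts on actin regulators and adhesion genes in smooth muscle, was a DEM in 0 of 12 conditions under every setting, and in 1 condition (high dose 28-d) without control 28-d replicate 16. At an adjusted p below 0.05 in edgeR it differed in 3. At low dose 14-d the libraries had 51686, 48160 and 56209 normalized RPM against 42990, 41829 and 43310 in the controls, all of them higher (log2 fold change 0.28 ± 0.10, adjusted p = 0.0355 in edgeR). This difference passed the adjustment in only 1 of 10 other settings, where the log2 fold change was between 0.05 and 0.45, and it was lost when any 1 of 5 of the 6 libraries was left out. At middle dose 7-d they had 29426, 37302 and 31252 against 39544, 44767 and 42723, all of them lower (-0.37 ± 0.10, adjusted p = 0.0181 in edgeR). This call was lost in 3 of 10 other settings (down to -0.20 with a filter of 5 RPM in every library) and without control 7-d replicate 5 or middle dose 7-d replicate 34 or 36.

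At middle dose 14-d the levels of miR-143-3p were 30434, 29478 and 33265 normalized RPM against the same 14-d controls, again all lower (-0.46 ± 0.09, adjusted p = 0.00317 in edgeR, which 18.3% of miRNAs passed). Here 8 of 10 other settings and all 6 fits with 1 library left out kept the call, and with all 12 controls pooled the log2 fold change was -0.30. Over the 12 conditions it was below 0 in 4 (median 0.14), in 5 with TMM factors, in 6 with the size factors of DESeq2 or no filter, and in 7 (median -0.07) without the libraries that stand apart, so its direction depended on the scaling and on those libraries.

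miR-143-5p, the scarce arm of miR-143, was a lower DEM in 1 condition, low dose 7-d. Its libraries there had 14.1, 17.4 and 13.5 normalized RPM against 27.4, 22.9 and 26.4 in the controls (log2 fold change -0.76 ± 0.15, adjusted p = 0.0047 in edgeR). At low dose 3-d it had 17.04, 16.04 and 15.7 against 22.6, 25.7 and 22.6, and the control value of 22.6 in replicate 1 rests on 8 counts (-0.55 ± 0.22, adjusted p = 0.26 in edgeR). This was a DEM in 4 of 10 other settings, with -0.76 under TMM factors and -0.79 under the size factors of DESeq2, and without control replicate 1 it was -0.57 (adjusted p = 0.0474 in edgeR). At high dose 3-d the values were 13.4, 10.96 and 19.003 (-0.71 ± 0.40, adjusted p = 0.432 in edgeR). High dose 3-d was a DEM without replicate 24, the highest of the group, and in 6 of 10 other settings. At high dose 7-d, without replicate 26 (25.4, against 12.9 and 14.2), both miR-143-5p (-0.91) and miR-145-3p (-0.65) were lower DEMs. The groups were separate in 5 of 12 conditions for miR-143-5p and miR-145-3p, in 7 for miR-145-5p and in 4 for miR-143-3p, while over all miRNAs and conditions 35.5% of comparisons were.

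At low dose 28-d the libraries of a single group fell far apart. miR-143-5p had 28.5 and 27.8 normalized RPM in replicates 28 and 30 and 14.5 in replicate 29, and miR-145-3p had 476, 444 and 212 in the same order. miR-143-3p was reversed, with 28815 and 32114 against 49198 in replicate 29. None of these 3 members was called against the controls in edgeR at this dose and time.

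The averages over time points came from contrasts of a single edgeR fit of all 48 libraries. At low dose, all 4 members differed from the controls, where 49.8% of the tested miRNAs did. miR-145-5p fell by 0.99 on the log2 scale (95% interval -1.30 to -0.69, adjusted p = 1.92e-06 in edgeR). miR-143-5p fell by 0.42 (-0.65 to -0.19, adjusted p = 0.00278 in edgeR) and miR-145-3p fell by 0.42 (-0.71 to -0.12, adjusted p = 0.0151 in edgeR). These 3 calls held in all other settings and whichever library was left out.

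miR-143-3p was the one member that was higher at low dose, by 0.28 (0.07 to 0.50, adjusted p = 0.0269 in edgeR). This call was lost without control 28-d replicate 18 (0.24) or low dose 28-d replicate 29 (0.22, adjusted p = 0.0875 in edgeR), and the difference was 0.14 (adjusted p = 0.117 in edgeR) without the 4 libraries that stand apart. It was lost as well with the size factors of DESeq2 (0.22), in its Wald test (0.22) and with no filter (0.18).

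At middle dose no member differed on average (36.5% of all miRNAs did), and the intervals were -0.38 to 0.06 for miR-143-3p, -0.15 to 0.31 for miR-143-5p, -0.59 to 0.02 for miR-145-5p and -0.06 to 0.52 for miR-145-3p. Single libraries decided 2 of these, since miR-145-5p was called without middle dose 3-d replicate 10 (-0.45) and miR-143-3p without control 3-d replicate 1 (-0.24) or without the 4 libraries that stand apart (-0.24, adjusted p = 0.00891 in edgeR). Other settings decided a further pair of calls, since miR-145-5p was called with no filter (-0.42) and miR-145-3p with library size alone (0.37). At high dose (28.2% of all miRNAs) only miR-143-5p did, and it fell by 0.38 (-0.61 to -0.14, adjusted p = 0.0136 in edgeR). miR-145-5p at high dose was -0.29 (-0.59 to 0.02, adjusted p = 0.139 in edgeR), beside -0.99 (-1.30 to -0.69) at low dose. Whether these 2 averages differed was not tested. The high dose value was called with no filter (-0.44, adjusted p = 0.0404 in edgeR) and in the Wald test of DESeq2 (-0.41, adjusted p = 0.0367). miR-145-3p at high dose was -0.22 with all libraries and -0.44 (adjusted p = 3.49e-05 in edgeR) without those that stand apart, and was also called without control 3-d replicate 1 alone (-0.31) and in the Wald test of DESeq2 (-0.31).

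Over all doses and times, miR-145-5p fell by 0.52 (-0.77 to -0.28, adjusted p = 0.000673 in edgeR) and miR-143-5p fell by 0.24 (-0.43 to -0.05, adjusted p = 0.0372 in edgeR), beside 41.2% of all miRNAs that differed. miR-143-3p was 0.07 (-0.11 to 0.25) and miR-145-3p was -0.14 (-0.37 to 0.10). Without control 3-d replicate 1 miR-145-3p was called, at -0.23. The miR-145-5p call held whichever library was left out, whereas the miR-143-5p call was lost without any 1 of 7 controls (the highest adjusted p in edgeR was 0.0796, without control 3-d replicate 2). Taking the 3 doses of a time point together, only miR-145-5p at 7-d was called (-0.72, adjusted p = 0.0428 in edgeR), and this call was lost with library size alone (-0.69) and when any 1 of 9 libraries was left out. Of all miRNAs, 31.2% were called at 3-d and 10.3% at 7-d, while 4.32% were at 14-d and 8.64% at 28-d.

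**Figure D3:**
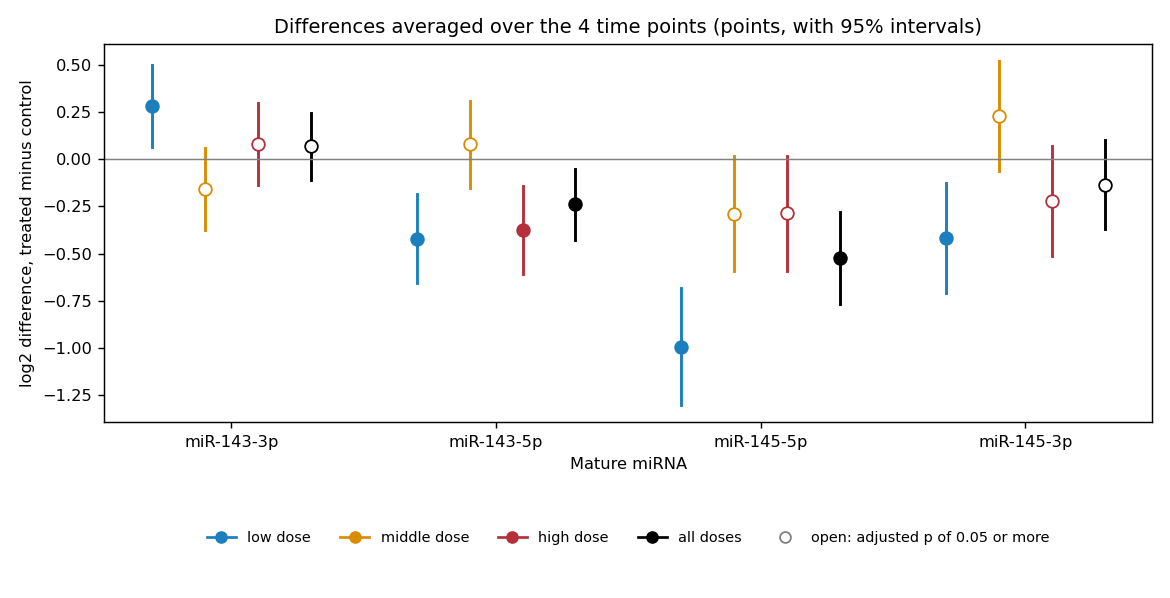
log2 difference of treated minus control for each member, averaged over the 4 time points, for each dose and for all doses together; points are the contrasts of the edgeR fit of 48 libraries, lines their 95% intervals, and filled points have an adjusted p below 0.05. The low dose value of miR-145-5p, -0.99, lies lowest, and miR-143-3p is the only member whose low dose interval is above 0.

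Pairs of doses were compared directly at each time point, which needs no controls. Of the 48 such comparisons (4 members, 12 pairs), 6 passed the adjustment, beside 10.9% of such comparisons over all miRNAs, and 5 of the 6 set the middle dose against the low dose. Without the 4 libraries that stand apart 21 of 48 passed (25.1% over all miRNAs), of which 9 were middle minus low, 5 high minus low and 7 high minus middle dose, so the number of calls and the pairs they fall on depended on those libraries. miR-145-5p was higher at middle than at low dose at 3-d by 1.64 (1.01 to 2.26, adjusted p = 0.00164 in edgeR), and by 0.97 without middle dose 3-d replicate 10. It was also higher at high than at low dose at 3-d by 1.03 (adjusted p = 0.0202 in edgeR), a call that was lost without high dose 3-d replicate 22 (0.82) or 24 (0.92) or without any 1 of the 3 low dose libraries. At 3-d the shares of all miRNAs called were 11.6% (middle minus low), 13.6% (high minus low) and 0.332% (high minus middle).

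At 7-d miR-145-3p was higher at middle than at low dose by 1.28 (adjusted p = 0.00167 in edgeR) and miR-143-5p by 0.83 (adjusted p = 0.00647 in edgeR), where 28.9%, 8.64% and 2.66% of miRNAs were called in the same order of pairs. At 14-d miR-143-5p was higher by 0.75 (adjusted p = 0.0166 in edgeR) and miR-143-3p lower by 0.74 (log2 difference -0.74, adjusted p = 0.0127 in edgeR), with 23.3%, 19.3% and 5.32% of miRNAs called. Both 14-d calls rested on single libraries, since the first was lost without middle dose 14-d replicate 33 or low dose 14-d replicate 41 and the second without middle dose 14-d replicate 32. The miR-143-3p call was also lost with library size alone or no filter, and the high minus low call of miR-145-5p at 3-d with no filter. At 28-d no member passed between doses with all libraries, with 4.32%, 2.66% and 10.6% of miRNAs called. Whether the averages over time differed between doses was not tested.

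The treatment effect did not pass the test of a change between time points in any of 48 comparisons in edgeR (4 members, 12 steps), and 2 had an unadjusted p below 0.05, both of miR-145-5p (2.93% of such comparisons over all miRNAs passed the adjustment). Without the 4 libraries that stand apart 5 of 48 passed (7.92% over all miRNAs), 4 of miR-143-5p and 1 of miR-143-3p. Under TMM, DESeq2 size factors, library size alone or the Wald test, and without low dose 28-d replicate 29 alone, 1 did, each time of miR-143-5p. The controls themselves moved in 1 member. miR-145-3p had 67.7, 282 and 260 normalized RPM in the 3-d controls, 290, 350 and 315 at 7-d, 307, 436 and 361 at 14-d and 423, 409 and 596 at 28-d. The 28-d controls were higher than the 3-d controls by 1.18 on the log2 scale (adjusted p = 0.00228 in edgeR, 39.5% of miRNAs), and by 0.81 without control 3-d replicate 1, where the count was 24. The 14-d minus 3-d difference of 0.80 (adjusted p = 0.0417 in edgeR, 20.9% of miRNAs) was 0.44 without that library (adjusted p = 0.413 in edgeR). The 14-d call was lost as well without control 14-d replicate 14 or 15, with library size alone and with no filter.

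Arm ratios within a library need no scaling between libraries. For miR-143 the 5p arm made 0.027% to 0.122% of the counts of both arms, and the 3p arm led in all 48 libraries. For miR-145 neither arm led throughout, since the 5p share went from 30.4% to 88.8% (median 45.7%) and was above that of the 3p arm in 11 libraries. The median 5p share was 48.8% in the controls and 49.2% at high dose, against 42.5% at low dose and 35.2% at middle dose. In 9 of the 12 middle dose libraries, those of 7-d, 14-d and 28-d, the share lay between 30.4% and 38.3%, while at 3-d it was 77.8%, 47.8% and 66.2%. Low dose 28-d replicates 28 and 30 (both 32.6%) and high dose 7-d replicate 26 (36.7%) lay in the same range. Low dose 7-d replicate 48 (37.8%) lay there as well. The 5p arm led in 0 of 12 low dose, 2 of 12 middle dose, 5 of 12 high dose and 4 of 12 control libraries.

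The 9 treated rats of each time point were set against the 3 controls for 3 ratios, 12 two-sided exact permutation tests in all, with a smallest possible p of 0.00909. None was below 0.05. The log2 ratio of miR-145-5p to miR-145-3p was lower in treated rats by 0.83 at 3-d (difference -0.83, exact p = 0.273), 0.077 without control 3-d replicate 1, and was -0.51 at 7-d (exact p = 0.1). The log2 ratio of miR-143-3p to miR-145-5p was higher by 0.49 to 0.74 at the 4 time points (exact p = 0.0818 to 0.318, adjusted over the 12 tests 0.4 to 0.477), but by 0.090 at 3-d without control 3-d replicate 1 and by 0.22 at 14-d without control 14-d replicate 13. At 28-d it was 0.44 without control 28-d replicate 18 and 1.07 without control 28-d replicate 16. As a difference of medians it was 0.23 to 0.87. At low dose this ratio had a median of 8.19, against 7.09 in the controls, 7.16 at middle dose and 7.14 at high dose. Low dose 28-d replicates 28 and 30 were at 6.97 and 7.23, within the control range of 5.10 to 7.38. High dose 7-d replicate 27 was at 8.24.

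**Figure D4:**
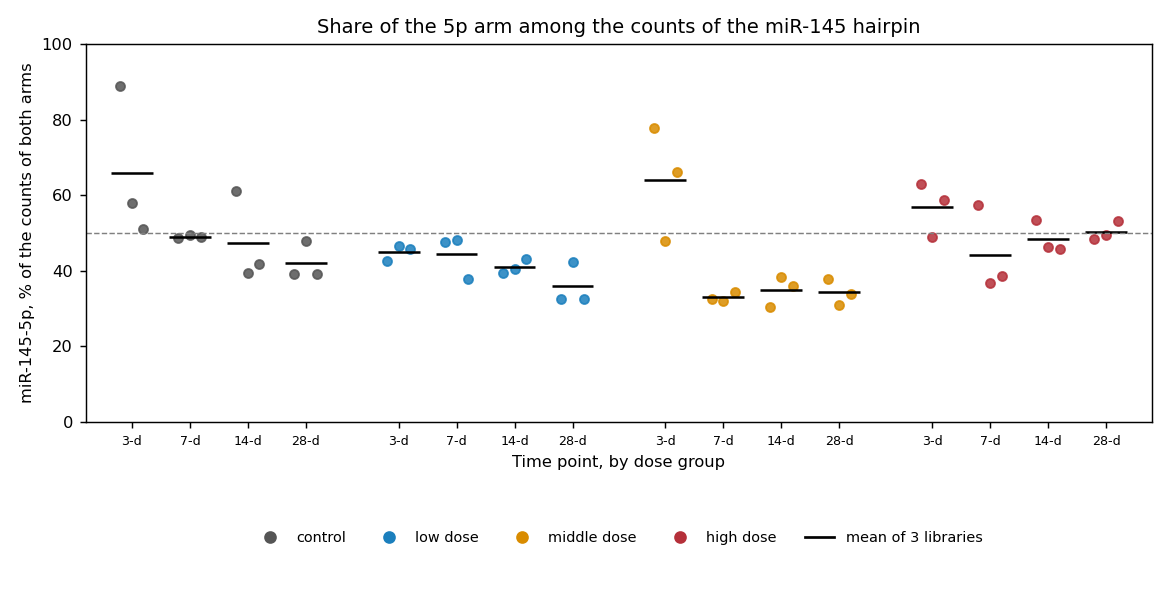
Share of miR-145-5p in the counts of both miR-145 arms (percent) in each library, by dose group and time point; points are libraries, bars the mean of 3, and the dashed line marks equal counts. The middle dose libraries of 7-d, 14-d and 28-d lie between 30.4% and 38.3%, and control 3-d replicate 1 is highest at 88.8%. Low dose 28-d replicates 28 and 30, high dose 7-d replicate 26 and low dose 7-d replicate 48 lie in the same range as those middle dose libraries.

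Members of the cluster were not uniformly correlated over the 48 libraries, which share dose groups, scaling and depth. Of 6 pairs, miR-143-5p and miR-145-3p had the highest Pearson r, 0.53 (Spearman rho 0.67, both with a permutation p over 100000 resamples, adjusted p = 0.00066 and 6e-05), and 0.49 without the 2 libraries farthest from the median. Within doses r was 0.89 at low dose and 0.83 at high dose but -0.03 in the controls and -0.06 at middle dose (n = 12 each), so the relation did not hold in 2 of the 4 dose groups. Low dose 28-d replicates 28 and 30 lay far above the low dose medians (28.5 and 27.8 against 16.4, and 476 and 444 against 219). High dose 7-d replicate 26 was the highest of its dose in both members (25.4 and 417). Whether the relation held within these doses without those libraries was not tested. miR-143-5p and miR-145-5p had r = 0.40 (rho 0.40, adjusted permutation p = 0.0129 and 0.00843), from -0.15 at middle dose to 0.82 at low dose. Low dose 28-d replicates 28 and 30 were also the highest of their dose in miR-145-5p (230 and 214).

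The abundant miR-143-3p had a negative r with each of the other members, of which that with miR-143-5p alone passed the adjustment by Pearson's r. It was -0.39 with miR-143-5p (rho -0.51, adjusted permutation p = 0.0129 and 0.00075), -0.30 with miR-145-5p (rho -0.29, adjusted permutation p = 0.0577 and 0.0573) and -0.13 with miR-145-3p (rho -0.47, adjusted permutation p = 0.467 and 0.00218). Without the 2 libraries farthest from the median these were -0.40, -0.15 and -0.50. The arms of miR-145 had r = 0.05 (rho 0.24, adjusted permutation p = 0.721 and 0.0938), 0.35 without those 2. Every one of these 4 relations changed sign between dose groups, as with r = -0.85 at low dose and 0.46 at high dose for the arms of miR-143, so none held within all doses. That low dose r includes 28-d replicates 28 and 30, far from the other low dose libraries. They had 28.5 and 27.8 normalized RPM of miR-143-5p (low dose median 16.4) and 28815 and 32114 of miR-143-3p (median 48801). The low dose r without them was not computed.

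The miRNAs whose levels were most like miR-145-5p over the 48 libraries were miR-345-5p (r = 0.83), miR-1843a-3p (0.74), miR-505-3p (0.74), miR-23b-3p (0.74) and miR-365-3p (0.73). miR-345-5p was measured at 25.5 to 97.0 normalized RPM. For miR-143-3p they were miR-30a-3p (r = 0.75), miR-122-5p (0.75), miR-542-3p (0.74), let-7g-5p (0.74) and miR-181d-5p (0.73). miR-122-5p is the defining miRNA of hepatocytes and had 19330 to 70950 normalized RPM. Its median was 34630 in the controls, and the low, middle and high doses had 52700, 27500 and 36340. These values are descriptions over libraries that share their dose groups.

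Marker lists show what moved beside the cluster. Over all tested miRNAs and conditions, 12.1% of comparisons were higher DEMs and 5.98% lower DEMs, with a median log2 fold change of 0.06. Of 84 comparisons of 7 mesenchyme markers, 15 were higher and 6 lower DEMs (median 0.12), and 12 of the 15 were at middle dose. The most abundant were miR-125b-5p, miR-99a-5p, miR-199a-3p and miR-10b-5p, with 1098, 998, 685 and 542 normalized RPM at low dose (medians), 1620, 1096, 685 and 438 in the controls and 2930, 2773, 656 and 432 at middle dose. At low dose, where miR-145-5p fell, the same list had 0 higher and 1 lower DEM in 28 comparisons, with a median log2 fold change of -0.05. The summed level of the mesenchyme list was 3579 to 5702 RPM in the controls and 2766 to 12360 RPM in treated livers.

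A further mesenchyme marker, miR-100-5p, was at 960 to 1706 RPM in 12 libraries and at 100 to 351 RPM in the other 36. The 12 are the 9 middle dose libraries of 7-d, 14-d and 28-d, low dose 28-d replicates 28 and 30 and high dose 7-d replicate 26. Their running numbers lie close together. In these 12 miR-145-3p was at 390 to 512 normalized RPM, which 4 of the other 36, all controls of 14-d or 28-d, also reached. In the same 12 the 5p share of the miR-145 arms was 30.4% to 38.3%, and low dose 7-d replicate 48 (37.8%) also lay there. The low dose libraries of 3-d, 7-d and 14-d carry the running numbers 40 to 48. Dose and running number cannot be told apart in them. The labels name no batch, and the part of any such factor in the values of all 4 members was not tested.

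The other lists moved as follows. Fibrosis-linked miRNAs (miR-21-5p and the miR-29 family) had 5 higher and 7 lower DEMs in 48 comparisons, with 38870 normalized RPM of miR-21-5p in the controls and 46150 at low dose (medians) and 2864 and 1501 of miR-29a-3p. Hepatocyte miRNAs had 2 higher and 6 lower DEMs in 48, bile duct epithelium 5 and 8 in 60, leukocyte 4 and 6 in 72, and endothelium, by both arms of miR-126a, 0 and 0 in 24. Red blood cell miRNAs had 1 higher and 20 lower DEMs in 48 (median log2 fold change -0.59), 11 of the lower ones at middle dose, and their summed level was 2786 to 98080 RPM in the controls and 872 to 8795 RPM in treated livers. The highest control sum was that of control 3-d replicate 1, the shallow library. There miR-486 had its maximum of 80940 normalized RPM, far above its control median of 4432. Its medians at low, middle and high dose were 4275, 2015 and 3417.

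Striated muscle markers, which would mark muscle tissue in a sample, had 3 higher and 4 lower DEMs in 24. Only miR-499-5p and miR-133a-3p of 6 passed the filter, and their list summed to 19.8 to 37.8 RPM in the controls and 19.7 to 47.3 RPM in treated livers, below the lowest RPM of miR-145-5p (106). The part of these cell types in the changes of the cluster was not tested.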

How the data were processed

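The data are raw counts that the authors deposited per mature miRNA and precursor, neither normalized nor filtered. Adaptors had been trimmed, reads between 18 and 25 bases retained and miRBase (release 21) entries counted with miRDeep2, whose version is not given in the sources used here. The submitters' processing notes name the build rn5.

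Where 1 mature name stood on several rows, the row with the highest total was taken. The 301 miRNAs with at least 5 RPM in at least 3 libraries were fitted in R 4.3.3 with the quasi-likelihood F-test of edgeR 4.0.16 after upper quartile scaling, each condition with its 3 controls (6 libraries), and all 48 libraries in a single fit (32 residual degrees of freedom). DEM thresholds follow the study's methods. Adjusted p-values are Benjamini-Hochberg values over all tested miRNAs. Arm ratios (pseudocount 0.5) had exact permutation tests, and correlations used log2(normalized RPM + 1) in scipy 1.17.1.

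Members and marker lists were chosen with earlier results of these data known. Named miRNAs are the members, the 5 most like miR-145-5p and the 5 most like miR-143-3p by Pearson r, any with a member's seed, and at most 4 per marker list by mean level. miR-100-5p was added after its values were seen.

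Alternatives were TMM, size factors and the Wald test of DESeq2 1.42.0, library size alone, no filter, a filter of 5 RPM in all libraries, the exact test of edgeR, pooled controls, a Benjamini-Hochberg threshold and leaving out single libraries. Leaving out the 4 libraries that stand apart was chosen after seeing the data, and middle dose 3-d replicates 10 and 12, with similar r, were kept. Of the tested miRNAs, 270 were matched by name in RefSeq.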

Additional observations from a re-analysis of the deposited data

Results flagged for a closer look

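In 6 of 48 comparisons a member differed between doses at the same time point in the edgeR fit of all 48 libraries (adjusted p below 0.05). Over all miRNAs 10.9% of such comparisons passed. At 3-d, miR-145-5p was 1.64 higher on the log2 scale at middle than at low dose and 1.03 higher at high than at low dose. At 7-d, miR-145-3p was 1.28 and miR-143-5p 0.83 higher at middle than at low dose. At 14-d, miR-143-5p was 0.75 higher and the log2 difference of miR-143-3p was -0.74 for middle minus low dose. The high minus low call at 3-d and both 14-d calls were lost when single libraries were left out. Without the 4 libraries that stand apart, 21 of the 48 comparisons passed (25.1% over all miRNAs), 9 of them middle minus low dose. The cause of these differences was not tested.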

How the results depend on the processing

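The 4 low dose DEM calls of miR-145-5p and its low dose average kept their direction under every setting run. The calls were lost only at 28-d with library size alone and, at 3-d and 28-d, with adjusted p-values in the main edgeR test. The number of conditions in which a member was a DEM moved as follows. For miR-143-5p (1) it was 4 with TMM or DESeq2 size factors, 3 with library size alone, no filter, the DESeq2 Wald test or without the libraries that stand apart, and 2 with 5 RPM in every library, pooled controls or 1 fit of all libraries. For miR-145-5p (4) it was 7 with no filter or pooled controls and 2 with adjusted p-values. For miR-145-3p (1) it was 2 with TMM, library size alone or without the libraries that stand apart, 3 with DESeq2 size factors, no filter or the Wald test, and 4 with 5 RPM in every library. Leaving out 1 library gave 0 to 1 for miR-143-3p and 1 to 2 for miR-143-5p and for miR-145-3p.

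Averaged differences of miR-143-3p over all treated groups were -0.050 (no filter) and -0.042 (without the libraries that stand apart), and they were 0.22 (DESeq2 size factors and Wald test), 0.18 (no filter) and 0.14 (without those libraries) at low dose, -0.24 (without those libraries) at middle dose, and -0.012 (DESeq2 size factors and Wald test), -0.069 (no filter) and -0.031 (without those libraries) at high dose. For miR-143-5p they were -0.20 over all doses with library size alone and -0.025 at middle dose with no filter. For miR-145-5p they were -0.42 at middle dose and -0.44 at high dose with no filter and -0.41 at high dose with the Wald test. For miR-145-3p they were -0.25 over all doses and -0.44 at high dose without the libraries that stand apart, 0.37 at middle dose with library size alone and -0.31 at high dose with the Wald test. With 1 library left out the ranges were -0.0080 to 0.13 (all doses), 0.21 to 0.35 (low dose) and -0.24 to -0.094 (middle dose) for miR-143-3p, -0.27 to -0.22 (all doses) for miR-143-5p, -0.45 to -0.21 (middle dose) for miR-145-5p, and -0.23 to -0.068 (all doses) and -0.33 to -0.15 (high dose) for miR-145-3p.

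The number of dose pairs that differed was, for miR-143-3p (1), 2 with TMM, 0 with library size alone or no filter and 7 without the libraries that stand apart; for miR-143-5p (2), 4 with library size alone and 6 without those libraries; for miR-145-5p (2), 1 with no filter; and for miR-145-3p (1), 2 with TMM, DESeq2 size factors, library size alone or the Wald test and 6 without those libraries. Leaving out 1 library gave 0 to 2, 1 to 3, 1 to 2 and 1 to 3 for miR-143-3p, miR-143-5p, miR-145-5p and miR-145-3p.

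The log2 ratio of the miR-143 arms at 14-d (-0.02) was 0.12 as a difference of medians and -0.13 to 0.084 with 1 library left out. That of the miR-145 arms at 3-d was 0.055 without the libraries that stand apart and -1.38 to 0.077 with 1 left out, at 14-d -0.59 to 0.041 (the highest without control 14-d replicate 13) and at 28-d -0.22 to 0.045 (without control 28-d replicate 17). As deviations from the group means, r was -0.091 for miR-143-3p and miR-143-5p, -0.27 for miR-143-3p and miR-145-5p, 0.39 for miR-143-3p and miR-145-3p and -0.062 for the miR-145 arms. Without the libraries that stand apart r was -0.21 for miR-143-3p and miR-145-5p and -0.53 for miR-143-3p and miR-145-3p, and without control 3-d replicate 1 alone it was -0.20 and -0.55. The causes were not tested.

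No paired analysis was possible because the replicate numbers run from 1 to 48 and are not shared between groups. Depth limits miR-143-5p most, with 8 counts in the shallowest library and 93 to 420 in the others.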
